A study of Mus musculus with 16 samples.

Results

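The genes of the proteasome were followed across 5 groups of mouse embryonic stem (ES) cells in which Tgif1 was knocked down or Tgif1 or Tgif2 was overexpressed. A gene was a member if an array probe set that carried only that symbol had a name beginning with Psma to Psmg and a number. The inducible catalytic subunits Psmb8, Psmb9 and Psmb10 were set apart as a separate list. This rule found 45 of the 12393 genes measured, and it used no measured value. There were 15 core members (8 of the alpha ring and 7 of the beta ring) and 23 regulatory members (6 ATPases, 14 Psmd genes and 3 activators). A further 5 were an inhibitor or chaperones of core assembly, Psmf1 and Psmg1 to Psmg4. The last 2, Psmc3ip and Psme3ip1, match the rule by their letters only: they encode a factor of meiotic recombination and a partner of the Psme3 protein, and are not subunits. The only probe set of Psme2 carried several symbols, so that activator was not a member.

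The cells were of the J1 line, grown in serum with leukemia inhibitory factor, and their total RNA was hybridized to Affymetrix Mouse 430A 2.0 arrays. There were 2 Tgif1 KD arrays (knockdown) and 2 shControl arrays, and 4 Tgif1 OE arrays, 4 Tgif2 OE arrays (both overexpression) and 4 BirA control arrays. The study asked how expression changes when the level of Tgif1 or Tgif2, both homeodomain repressors, is changed. Nothing used here gives the hairpin, the promoter that drove the transgenes, the number of clones or the time of harvest.

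The proteasome is the protease that degrades ubiquitin-tagged proteins. Its core is a barrel of stacked rings, outer ones of alpha subunits that gate the entrance and inner ones of beta subunits, of which Psmb5, Psmb6 and Psmb7 cut the substrate. Regulatory particles, made of the Psmc ATPases and the Psmd subunits, bind its ends, recognise ubiquitin, unfold the substrate and feed it in, while Psme activators open the same gate without ubiquitin. Nfe2l1, a transcription factor that binds antioxidant response elements, raises these genes together when the proteasome is inhibited. Human ES cells are known for high proteasome activity.

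Promoters are shown for 4 members on which the results turn: a core alpha subunit, a catalytic beta subunit and an assembly chaperone that were lower after the knockdown, and the activator that moved in opposite directions in the knockdown and overexpression comparisons. Each stretch is the 250 bases before the gene start in the RefSeq annotation of GRCm38.p6, written in the direction of the gene. They lie at chr2:180042465-180042714 on the minus strand for Psma7, and on the plus strand at chr11:70525107-70525356 for Psmb6, at chr5:123227940-123228189 for Psmd9 and at chr14:55578244-55578493 for Psme1. Capitals mark matches, on either strand, to the core of the antioxidant response element (TGACNNNGC), the CCAAT box (CCAAT) or the core of the ETS factor site (CCGGAAG).
Psma7: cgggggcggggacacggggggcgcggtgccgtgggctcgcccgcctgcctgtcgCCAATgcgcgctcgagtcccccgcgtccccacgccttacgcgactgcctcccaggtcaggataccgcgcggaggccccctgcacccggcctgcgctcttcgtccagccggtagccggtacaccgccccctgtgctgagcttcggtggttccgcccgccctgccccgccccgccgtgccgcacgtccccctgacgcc
Psmb6: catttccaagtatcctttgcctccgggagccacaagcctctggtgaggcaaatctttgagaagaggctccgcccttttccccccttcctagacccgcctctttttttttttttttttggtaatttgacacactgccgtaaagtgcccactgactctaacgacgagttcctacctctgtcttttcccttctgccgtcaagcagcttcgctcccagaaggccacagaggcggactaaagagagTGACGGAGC
Psmd9: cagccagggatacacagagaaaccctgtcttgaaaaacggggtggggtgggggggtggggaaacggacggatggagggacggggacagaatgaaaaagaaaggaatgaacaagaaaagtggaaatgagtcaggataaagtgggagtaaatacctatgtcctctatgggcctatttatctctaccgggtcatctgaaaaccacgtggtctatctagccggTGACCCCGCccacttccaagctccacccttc
Psme1: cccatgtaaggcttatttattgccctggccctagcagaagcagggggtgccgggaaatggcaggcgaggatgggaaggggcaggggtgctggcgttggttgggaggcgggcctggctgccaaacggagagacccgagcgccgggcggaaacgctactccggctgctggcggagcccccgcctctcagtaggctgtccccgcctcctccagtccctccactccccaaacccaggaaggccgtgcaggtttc

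Of the 45 members, 37 had a promoter in the table. The antioxidant response element core stood in 5 of the 37, namely Psmb5, Psmb6, Psmc6, Psmd12 and Psmd9, against 11.5% of all genes with a promoter in the same window. The CCAAT box stood in 14 of 37, against 37.5% of genes. Among core members it was in 6 of 11, namely Psma1, Psma2, Psma3, Psma6, Psma7 and Psmb3, and among regulatory members in 6 of 20. The ETS core stood in 13 of 37, against 7.83% of genes. It was in 10 of 20 regulatory members and in 1 of 11 core members, Psma6. None of the 3 motifs stood in the window of Psme1. The matches describe letters and were not tested as binding sites.

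Values are log2 intensities as deposited, and levels were compared only within a gene, never between genes. Where groups are said to overlap or not, this describes the arrays shown. The share of all genes whose groups did not overlap was not computed, and with 2 arrays a group such a gap often arises by chance. A gene was called higher or lower where limma's moderated test gave a p-value under 0.05 after Benjamini-Hochberg adjustment across the 12393 genes. Tgif1 was 7.46 and 7.12 on Tgif1 KD arrays, against 10.71 and 10.66 on shControl arrays. On the arrays labelled Tgif1 OE, Tgif1 was lower than on BirA control arrays (-0.58 ± 0.07 log2, SE; limma adjusted p = 5.52e-05). On those labelled Tgif2 OE, as deposited, Tgif2 had a change of 0.11 ± 0.07 (limma adjusted p = 0.208) and Tgif1 of -0.42 ± 0.07 (limma adjusted p = 4.57e-04). Tgif2 was higher on Tgif1 KD than on shControl arrays (0.81 ± 0.09; limma adjusted p = 1.60e-05). It was lower on Tgif1 OE than on BirA control arrays (-0.45 ± 0.07; limma adjusted p = 1.86e-04). Since it is not known whether these probe sets detect the transgenes, the groups are named by label only. The 12 ES cell markers averaged 11.67 to 12.31 over the 16 arrays, with none under log2 7. Of the 12 fibroblast (feeder) markers, 10 to 12 were under log2 7 in each group, and all 6 measured blood markers were under it in every group. On Tgif1 OE arrays 5 ES cell markers were called lower and 4 fibroblast markers higher than on BirA control arrays, where 9.51% of all genes were lower and 11.4% higher. On Tgif2 OE arrays as deposited, 3 ES cell markers were higher and 1 lower, and 4 fibroblast markers were higher. Of all genes, 28.7% were higher and 6.69% lower there. The fibroblast list averaged 4.63 to 4.97 on Tgif1 OE arrays, 4.58 to 4.90 on Tgif2 OE arrays and 4.34 to 4.57 on BirA control arrays. The part of these shifts in the results on the members was not tested. The 4 Tgif2 OE arrays had column medians on average 0.08 log2 above those of the other 12, and their deposited values lay above BirA control for most genes. The overexpression arrays fell into pairs, replicates 1 and 2 against replicates 3 and 4, for many members. Psmb7 showed it most: it read 10.33, 10.33, 9.79 and 9.74 on the 4 Tgif1 OE arrays, and the Tgif2 OE and BirA control arrays were split in the same way. Results with the pairs averaged, an alternative chosen after the data were seen, are therefore given beside the calls.

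Replicates of the members lay close together. The median within-group SD over the 45 members was 0.02 log2 in Tgif1 KD and in shControl (n = 2 each), 0.06 in Tgif1 OE, 0.06 in Tgif2 OE and 0.08 in BirA control (n = 4 each). Over all genes the median SD was 0.06 in the knockdown arm groups and 0.12 in the overexpression arm groups. All genes include dim ones, while the probe set used averaged log2 8.15 or more for every member. These medians were not matched for brightness. The members with the widest spread were Psmc4 in the knockdown arm (SD 0.15 in both groups), Psmb7 in Tgif1 OE (0.33), Psmd3 in Tgif2 OE (0.38) and Psmg3 in BirA control (0.29).

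After Tgif1 knockdown, 11 of the 38 core and regulatory members were called lower, 2 were called higher and 25 were not called. Of the 45 members, 12 were lower and 2 were higher on Tgif1 KD than on shControl arrays. Over all genes, dim ones included, 12.9% were lower and 12.5% were higher. The median change was -0.18 log2 for the 15 core members and -0.16 for the 23 regulatory members, against -0.05 for all genes, of which 57.0% were below 0. Core changes were negative for 14 of 15, Psma8 being the exception, and regulatory changes for 17 of 23. Calls of lower were made for 6 of 15 core and 5 of 23 regulatory members and for 1 of the 4 assembly chaperones. In these bulk samples, fewer cells of a type and less RNA per cell cannot be told apart.

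**Figure D1:**
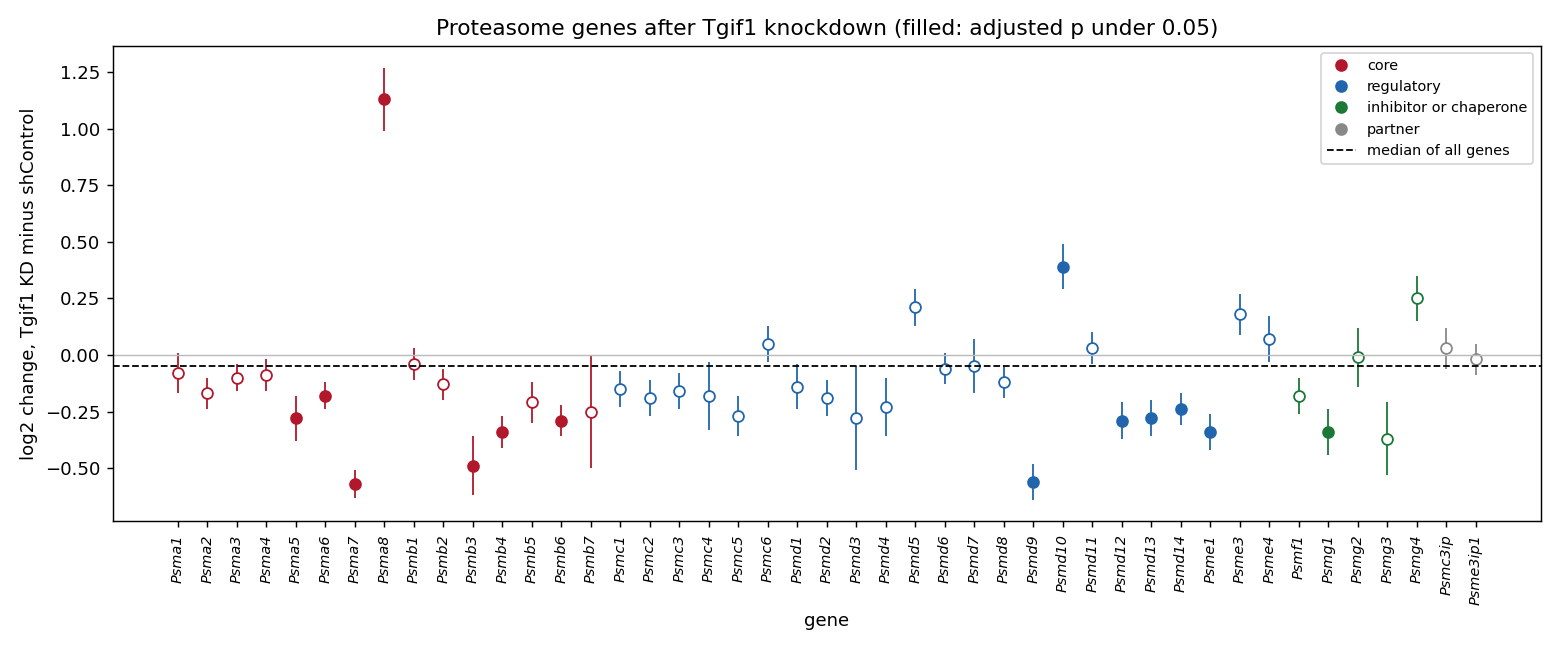
Change of each of the 45 members on the log2 scale, Tgif1 KD minus shControl, with bars of 1 SE from the fit. Filled points passed an adjusted p of 0.05, the dashed line is the median of all genes at -0.05, and Psma8 at 1.13 stands apart from members that mostly lie below the line.

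Among alpha ring genes, 3 of 8 fell and 1 rose. Psma7, the alpha subunit of the core that most tissues use at this place, had 11.24 and 11.29 log2 on Tgif1 KD arrays, against 11.86 and 11.81 on shControl arrays. Both knockdown arrays lay below both controls, and the signal was 67.5% of control (-0.57 ± 0.06, SE; limma adjusted p = 1.07e-05). A second Psma7 probe set changed by -0.63. Psma8, the counterpart that takes the place of Psma7 in spermatocyte proteasomes, moved the other way. It read 9.07 and 9.09 on Tgif1 KD arrays and 7.94 and 7.97 on shControl arrays, with no overlap. This was a 2.18-fold rise (1.13 ± 0.14; limma adjusted p = 3.35e-05), the largest change of any member in this comparison. Psma5 (-0.28) and Psma6 (-0.18) fell by less, with limma adjusted p-values of 0.0438 and 0.0418. Psma1 to Psma4 had changes of -0.08 to -0.17 and were not called.

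All 7 beta ring genes had negative changes, with a median of -0.25, and 3 were called. Psmb3, a beta subunit without protease activity, read 11.91 and 11.88 on Tgif1 KD arrays, against 12.35 and 12.41 on shControl arrays (-0.49 ± 0.13; limma adjusted p = 0.0101). Its second probe set changed by -0.44. Psmb4, another beta subunit that does not cut, read 12.54 and 12.55 on Tgif1 KD arrays and 12.88 on each shControl array (-0.34 ± 0.07; limma adjusted p = 0.00176). Neither gene had overlapping groups.

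Of the catalytic subunits, only Psmb6 passed the test. Psmb6, the caspase-like one, had 12.10 and 12.14 on Tgif1 KD arrays and 12.40 and 12.43 on shControl arrays (-0.29 ± 0.07; limma adjusted p = 0.00809). Psmb5, the chymotrypsin-like one, had 12.22 and 12.19 on Tgif1 KD arrays and 12.41 and 12.42 on shControl arrays (-0.21 ± 0.09; limma adjusted p = 0.118). Psmb7, the trypsin-like one, had 10.12 and 10.19 on Tgif1 KD arrays and 10.40 and 10.42 on shControl arrays (-0.25 ± 0.25; limma adjusted p = 0.518). The groups did not overlap for any of the 3. The spread behind these tests was pooled over all 16 arrays, and it was wide for Psmb7. Overexpression arrays split by pair in Psmb7 and also in Psmb5, which read 12.25, 12.26, 12.40 and 12.38 on Tgif1 OE arrays. Fitted on the knockdown arm alone, 17 members were called lower and 3 higher. The share of all genes called in that fit is not given here.

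None of the 6 ATPase genes was called, and 5 of them had negative changes, the lowest being Psmc5 at -0.27 ± 0.09 (limma adjusted p = 0.0513). Of the 14 Psmd genes, 4 fell and 1 rose. Psmd9, a chaperone that helps the ATPase ring assemble, had 8.18 and 8.20 on Tgif1 KD arrays, against 8.76 and 8.74 on shControl arrays. The knockdown arrays were well below the controls (-0.56 ± 0.08; limma adjusted p = 1.57e-04). A dimmer second Psmd9 probe set changed by -0.15. Psmd10, another chaperone of that ring, rose: 9.25 and 9.20 on Tgif1 KD arrays and 8.83 on each shControl array (0.39 ± 0.10; limma adjusted p = 0.00762). The third such chaperone, Psmd5, had a change of 0.21 ± 0.08 that did not pass (limma adjusted p = 0.0819). The other members that fell were Psmd12 (-0.29) and Psmd13 (-0.28), structural subunits of the lid, and Psmd14 (-0.24), the lid enzyme that removes ubiquitin chains.

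Activators differed among themselves. Psme1, an interferon-inducible activator subunit, had 10.28 and 10.22 on Tgif1 KD arrays and 10.55 and 10.64 on shControl arrays (-0.34 ± 0.08; limma adjusted p = 0.00488). Psme3, its nuclear relative, had 9.38 and 9.37 on Tgif1 KD arrays and 9.18 and 9.20 on shControl arrays (0.18 ± 0.09; limma adjusted p = 0.139). Psme4, an activator of another family, had 11.99 and 12.05 on Tgif1 KD arrays and 11.96 and 11.95 on shControl arrays (0.07 ± 0.10; limma adjusted p = 0.706). Only Psme1 was called, and all 3 had groups that did not overlap. Psmg1, a chaperone of alpha ring assembly, read 11.45 and 11.49 on Tgif1 KD arrays and 11.82 and 11.80 on shControl arrays (-0.34 ± 0.10; limma adjusted p = 0.0217). Psmg3 (-0.37) and Psmg4 (0.25) had changes of opposite sign and were not called.

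With 2 arrays a group, several of these calls rested on every array. Leaving out an array tends to make calls rarer for any gene. The share of all genes called in such settings is not given here. The count of members called lower was 12 with all arrays, 6 without Tgif1 KD replicate 1, 5 without Tgif1 KD replicate 2, 6 without shControl replicate 1 and 3 without shControl replicate 2. The count called higher was 1 without Tgif1 KD replicate 1, where Psmd10 lost its call (limma adjusted p = 0.0584). Psmb3 lost its call without Tgif1 KD replicate 2 (limma adjusted p = 0.0607) and without shControl replicate 2 (0.0707). Psmb6 lost its call without Tgif1 KD replicate 1 (limma adjusted p = 0.0596) and without shControl replicate 2 (0.0578). Psmd13 lost its call without Tgif1 KD replicate 2 (limma adjusted p = 0.145), without shControl replicate 1 (0.0531) and without shControl replicate 2 (0.0967). Psme1 had a change of -0.30 without shControl replicate 2 and lost its call there (limma adjusted p = 0.0579). Psma5, Psma6, Psmd12, Psmd14 and Psmg1 lost their calls whichever array was left out. Psma7, Psma8, Psmb4 and Psmd9 kept theirs under all 11 alternatives run for this comparison, and 0 of the members called there reversed. The difference between 5′ and 3′ control probe sets for Gapdh was -0.10 and -0.08 on Tgif1 KD arrays and -0.21 and -0.22 on shControl arrays. For Actb it was -0.52 and -0.49 on Tgif1 KD arrays and -0.61 and -0.67 on shControl arrays. This measure of RNA quality differed between the groups. In the overexpression arm it split by array pair: for Gapdh it was -0.24, -0.34, -0.02 and -0.08 on Tgif1 OE arrays, -0.17, -0.19, -0.04 and -0.06 on Tgif2 OE arrays, and -0.11, -0.13, -0.05 and -0.04 on BirA control arrays. For Actb it was -0.58, -0.67, -0.45 and -0.48 on Tgif1 OE arrays and -0.54, -0.57, -0.47 and -0.46 on BirA control arrays. Its part in the results was not tested in either arm.

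**Figure D2:**
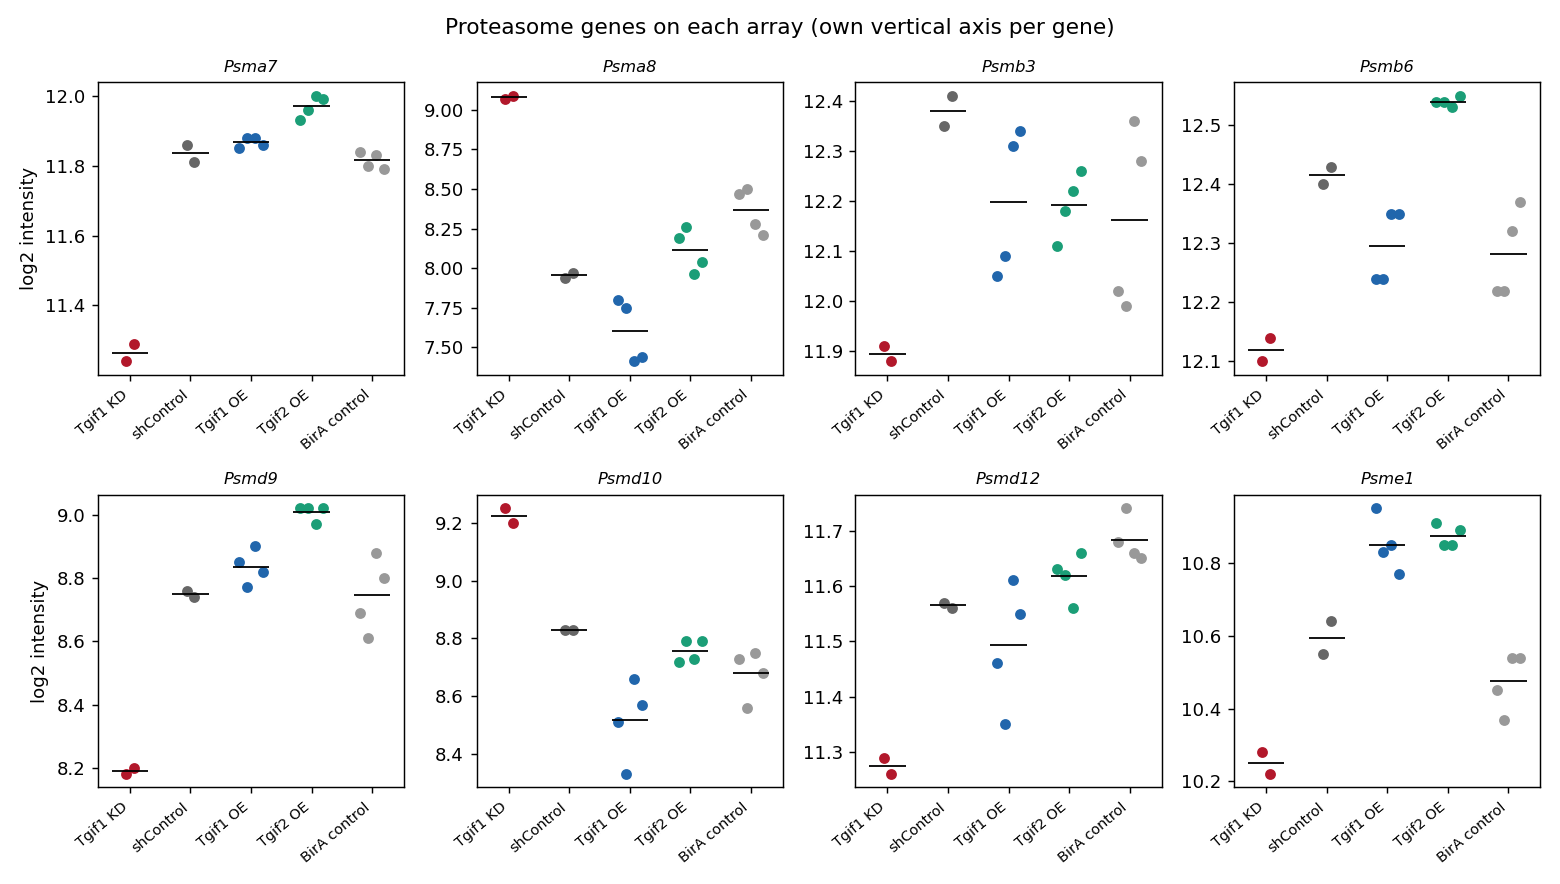
Log2 intensity of 8 members on each of the 16 arrays, with a bar at each group mean and a separate vertical axis per gene. Psma7 and Psmd9 are lowest on the 2 Tgif1 KD arrays, while Psma8 is highest there at 9.07 and 9.09.

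On Tgif1 OE arrays most members stayed near the BirA controls. Of the 45 members, 1 was higher and 4 were lower. Over all genes, 11.4% were higher and 9.51% were lower. The median change was 0.03 for core and -0.03 for regulatory members, against 0.01 for all genes. No beta ring gene and no ATPase gene was called.

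The called members of this comparison were Psma8, Psme1 and 3 Psmd genes. Psma8 read 7.80, 7.75, 7.41 and 7.44 on Tgif1 OE arrays, against 8.47, 8.50, 8.28 and 8.21 on BirA control arrays. Every Tgif1 OE array was below every control (-0.76 ± 0.10; limma adjusted p = 7.56e-05). The change was -0.71 within replicates 1 and 2 and -0.82 within replicates 3 and 4, and with the pairs averaged the limma adjusted p was 0.0161. Psme1 read 10.95, 10.83, 10.85 and 10.77 on Tgif1 OE arrays, against 10.45, 10.37, 10.54 and 10.54 on BirA control arrays. It was higher on every Tgif1 OE array (0.38 ± 0.06; limma adjusted p = 2.24e-04). Its change was 0.49 within replicates 1 and 2 and 0.27 within replicates 3 and 4, and with the pairs averaged the limma adjusted p was 0.0344.

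Psmd5 read 10.13, 10.16, 10.12 and 10.09 on Tgif1 OE arrays and 10.39, 10.46, 10.41 and 10.37 on BirA control arrays (-0.28 ± 0.06; limma adjusted p = 0.00303). Psmd8, a structural subunit of the lid, read 11.07, 11.00, 11.08 and 11.09 on Tgif1 OE arrays and 11.28, 11.25, 11.28 and 11.23 on BirA control arrays (-0.20 ± 0.05; limma adjusted p = 0.00861). Psmd12 read 11.46, 11.35, 11.61 and 11.55 on Tgif1 OE arrays and 11.68, 11.74, 11.66 and 11.65 on BirA control arrays (-0.19 ± 0.06; limma adjusted p = 0.0276). In all 3 genes every Tgif1 OE array lay below every control, by the least in Psmd12. With the pairs averaged, none of these 3 was called (limma adjusted p of 0.104 for Psmd5, 0.193 for Psmd8 and 0.257 for Psmd12), which left 1 member lower, Psma8, and 1 higher, Psme1. Within replicates 3 and 4, Psmd12 had a change of -0.08 (limma adjusted p = 0.388). Psmd12 also lost its call without Tgif1 OE replicate 1 (limma adjusted p = 0.0658), without Tgif1 OE replicate 2 (0.086), without BirA control replicate 1 (0.0535) and without BirA control replicate 2 (0.0765). The count called higher was 2 without Tgif1 OE replicate 2, and 2 with the replicate number as a block.

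The Tgif2 OE comparison uses the same 4 BirA control arrays. The median change of all genes there was 0.12 as deposited, and that of the 45 members was also 0.12. As deposited, 17 members were higher and 1 was lower, where 28.7% of all genes were higher and 6.69% were lower. After quantile normalization of all columns, 2 members were higher and 4 were lower, where 13.8% of all genes were higher and 13.0% were lower. The 2 that were higher after quantile normalization were Psme1 and Psmc3ip, and the 4 that were lower were Psma8, Psmd5, Psmd8 and Psmd12. With the pairs averaged, which leaves fewer samples for every gene, 2 were higher and 0 were lower.

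Psme1 read 10.91, 10.85, 10.85 and 10.89 on Tgif2 OE arrays, all above the BirA control arrays given above. Its change was 0.40 ± 0.06 as deposited (limma adjusted p = 9.02e-05) and 0.27 after quantile normalization (limma adjusted p = 0.00297), and it was called in all 19 alternatives run. Psmc3ip read 9.19, 9.11, 9.23 and 9.20 on Tgif2 OE arrays and 8.80, 8.64, 8.88 and 8.81 on BirA control arrays. Its change was 0.40 ± 0.07 as deposited (limma adjusted p = 3.18e-04) and 0.28 after quantile normalization (limma adjusted p = 0.00912). Psma8 read 8.19, 8.26, 7.96 and 8.04 on Tgif2 OE arrays. The groups overlapped and it was not called as deposited, while its change after quantile normalization was -0.34 (limma adjusted p = 0.0121).

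Psmc4 and Psmd1, an ATPase and a scaffold subunit of the regulatory particle, had the next largest calls in the Tgif2 OE comparison. Psmc4 read 12.87, 12.68, 12.84 and 12.52 on Tgif2 OE arrays and 12.51, 12.66, 12.12 and 12.36 on BirA control arrays, so that the groups overlapped. As deposited, a second Psmc4 probe set changed by 0.09, against 0.32 for the probe set used. Psmd1 read 12.83, 12.89, 12.59 and 12.69 on Tgif2 OE arrays and 12.44, 12.41, 12.54 and 12.43 on BirA control arrays, without overlap. Relative to the median of all genes their changes were 0.20 and 0.18, and neither was called after quantile normalization (changes of 0.16 and 0.15). Psmd8 was the member called lower as deposited, at 11.14, 11.21, 11.08 and 11.06 on Tgif2 OE arrays. All were below the BirA controls, with a change of -0.14 ± 0.05 as deposited (limma adjusted p = 0.0375) and of -0.28 after quantile normalization (limma adjusted p = 5.35e-04). The count of members called lower was 0 without BirA control replicate 1, 2 or 3 and without Tgif2 OE replicate 1, 3 or 4. It was 2 without BirA control replicate 4, 2 without Tgif2 OE replicate 2 and 2 with the replicate number as a block.

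Of the catalytic subunits, Psmb6 read 12.24, 12.24, 12.35 and 12.35 on Tgif1 OE arrays, 12.54, 12.54, 12.53 and 12.55 on Tgif2 OE arrays, and 12.22, 12.22, 12.32 and 12.37 on BirA control arrays. The Tgif2 OE arrays were above all 8 of the others. Against BirA control their change was 0.26 as deposited (limma adjusted p = 0.00155) and 0.11 after quantile normalization, where the gene was not called. Psmb5 read 12.25, 12.26, 12.40 and 12.38 on Tgif1 OE arrays, 12.38, 12.42, 12.48 and 12.53 on Tgif2 OE arrays, and 12.22, 12.28, 12.48 and 12.45 on BirA control arrays. Psmb7 read 10.51, 10.41, 9.87 and 9.94 on Tgif2 OE arrays and 10.28, 10.17, 9.75 and 9.79 on BirA control arrays. Neither gene was called in an overexpression comparison, and in both the groups overlapped. Psme3 read 9.28, 9.20, 9.27 and 9.30 on Tgif1 OE arrays, 9.36, 9.42, 9.31 and 9.41 on Tgif2 OE arrays, and 9.17, 9.04, 9.31 and 9.28 on BirA control arrays. Its Tgif2 OE change was 0.18 as deposited (limma adjusted p = 0.0331) and 0.06 after quantile normalization (limma adjusted p = 0.484). Psme4 read 11.84, 11.87, 11.92 and 11.91 on Tgif1 OE arrays, 11.78, 11.85, 12.13 and 12.06 on Tgif2 OE arrays, and 11.73, 11.73, 11.87 and 11.88 on BirA control arrays. It was not called in either comparison, and its groups overlapped in both.

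Tgif1 OE and Tgif2 OE arrays were also compared directly. The median difference of all genes was -0.10, and 0 members were higher and 17 lower on Tgif1 OE arrays as deposited, where 2.25% of all genes were higher and 17.4% were lower. After quantile normalization 0 were higher and 1 was lower, where 5.41% of all genes were higher and 4.55% were lower. That member was Psma8, lower on every Tgif1 OE array than on any Tgif2 OE array, with a difference of -0.41 after normalization (limma adjusted p = 0.0122). The other larger differences as deposited were in Psmg2, a partner of Psmg1, and in the ATPase genes Psmc4 and Psmc6. Psmg2 read 10.42, 10.15, 10.61 and 10.51 on Tgif1 OE arrays and 10.79, 10.80, 11.00 and 10.88 on Tgif2 OE arrays. Psmc4 read 12.34, 12.46, 12.37 and 12.37 on Tgif1 OE arrays, below all 4 Tgif2 OE values given above. Psmc6 read 11.79, 11.79, 11.94 and 11.94 on Tgif1 OE arrays and 12.06, 12.15, 12.19 and 12.19 on Tgif2 OE arrays. The groups did not overlap in these 3 genes, whose differences relative to the median of all genes were -0.34, -0.24 and -0.18. As deposited, a second probe set differed by -0.51 for Psmg2 and by -0.18 for Psmc4. Further Psmc6 probe sets differed by -0.13 and -0.05, and Psmc6 was not called with the mean of its probe sets. With the pairs averaged, which leaves fewer samples for every gene, 0 members passed in either direction. The count called lower was 9 without Tgif1 OE replicate 1, 8 without Tgif1 OE replicate 2, 10 without Tgif1 OE replicate 4, 7 without Tgif2 OE replicate 1, 8 without Tgif2 OE replicate 2 and 10 without Tgif2 OE replicate 3.

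**Figure D3:**
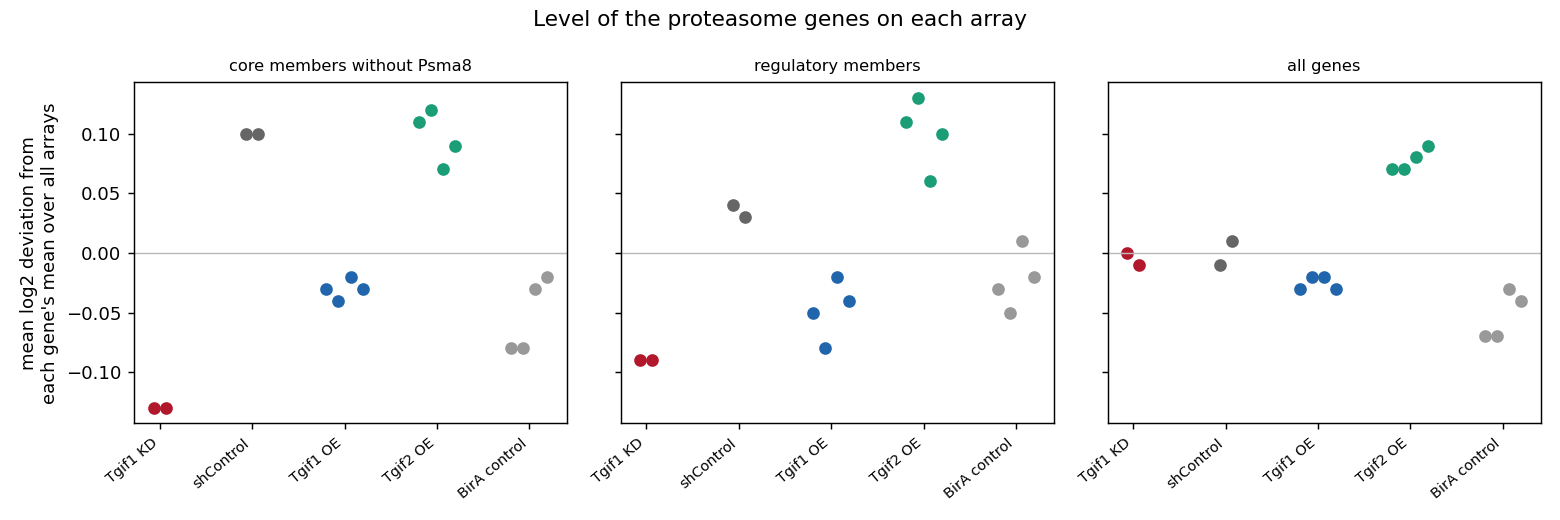
Mean log2 deviation of core members without Psma8, regulatory members and all genes on each array from each gene's mean over the 16 arrays. Core members without Psma8 lie at -0.13 on both Tgif1 KD arrays and at 0.10 on both shControl arrays, while all genes differ by no more than 0.02 between these 4 arrays.

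Averaged over the genes, the level per array followed the same lines. Core members without Psma8 stood at -0.13 on both Tgif1 KD arrays and at 0.10 on both shControl arrays, relative to each gene's mean over all arrays. Regulatory members stood at -0.09 on both Tgif1 KD arrays and at 0.04 and 0.03 on the shControl arrays. On Tgif2 OE arrays, core members without Psma8 stood at 0.07 to 0.12 and all genes at 0.07 to 0.09. On Tgif1 OE arrays, core members without Psma8 stood at -0.04 to -0.02, against -0.08 to -0.02 on BirA control arrays, so that these groups overlapped. With Psma8 included, core members stood at -0.06 and -0.05 on Tgif1 KD arrays and at 0.08 on both shControl arrays. They then stood at -0.08 to -0.05 on Tgif1 OE arrays and at -0.05 to -0.02 on BirA control arrays. A sum of this kind is a description and was given no test.

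The knockdown and Tgif1 OE comparisons share no arrays, so their effects were tested against each other in a contrast of the Tgif1 KD effect minus the Tgif1 OE effect. Of the 45 members, 4 had a higher and 9 a lower knockdown effect. Over all genes, 13.0% were higher and 14.6% were lower. Psma8 differed by 1.89 ± 0.17 (limma adjusted p = 1.55e-06) and Psme1 by -0.72 ± 0.10 (limma adjusted p = 5.88e-05). These were the 2 members called in opposite directions in the separate comparisons: Psma8 rose with the knockdown and fell on Tgif1 OE arrays, and Psme1 fell with the knockdown and rose on Tgif1 OE arrays. Over all genes, 12.5% were higher and 12.9% lower in the knockdown, and 11.4% higher and 9.51% lower on Tgif1 OE arrays. The share of all genes called in opposite directions was not computed. The knockdown call of Psme1 was lost without shControl replicate 2 (limma adjusted p = 0.0579), while the difference between its effects was called in all 22 alternatives run, with a highest limma adjusted p of 0.004. Psmd12 was called lower in both.

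Set beside the Tgif2 OE comparison as deposited, 7 members were called lower in the knockdown and higher on Tgif2 OE arrays: Psma5, Psma6, Psma7, Psmb6, Psmd9, Psmd14 and Psme1. Of these, only Psme1 was called on Tgif2 OE arrays after quantile normalization. Over all genes, 12.9% were lower in the knockdown and 28.7% were higher on Tgif2 OE arrays as deposited. The share of all genes called in both of these ways was not computed. Psma5 read 12.39 and 12.43 on Tgif1 KD arrays and 12.71 and 12.67 on shControl arrays. On Tgif2 OE arrays it read 12.79, 12.82, 12.96 and 12.91, against 12.56, 12.59, 12.75 and 12.81 on BirA control arrays, so that these overexpression arm groups overlapped. Psma6 read 12.86 and 12.85 on Tgif1 KD arrays and 13.06 and 13.02 on shControl arrays. On Tgif2 OE arrays it read 13.10, 13.12, 13.08 and 13.03, all above the 12.95, 12.90, 12.96 and 12.98 on BirA control arrays. Psmd14 read 12.27 and 12.29 on Tgif1 KD arrays and 12.51 and 12.53 on shControl arrays. It read 12.72, 12.71, 12.56 and 12.65 on Tgif2 OE arrays and 12.53, 12.56, 12.43 and 12.42 on BirA control arrays, and these groups overlapped at 12.56. Psma7 averaged 11.97 ± 0.03 on Tgif2 OE arrays and 11.82 ± 0.02 on BirA control arrays (SD, n = 4 each), without overlap. Psmd9 read 9.02, 9.02, 8.97 and 9.02 on Tgif2 OE arrays, above the 8.69, 8.61, 8.88 and 8.80 on BirA control arrays.

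Psma7 (-0.62 ± 0.08; limma adjusted p = 2.49e-05) and Psmd9 (-0.65 ± 0.10; limma adjusted p = 2.21e-04) also differed between the effects. Psma7 read 11.85, 11.88, 11.88 and 11.86 on Tgif1 OE arrays and 11.84, 11.80, 11.83 and 11.79 on BirA control arrays, and was not called there. Among the assembly chaperones of the regulatory particle, Psmd10 (0.55 ± 0.12; limma adjusted p = 0.00268) and Psmd5 (0.49 ± 0.10; limma adjusted p = 0.00213) had a higher knockdown effect and Psmd9 a lower one. The other members with a higher or lower effect were Psmg4 at 0.40, Psmb3 at -0.52, Psma5 and Psmd14 at -0.38 each, Psmb6 and Psmc2 at -0.30 each, and Psmb4 at -0.25. The count called lower was 3 with the pairs averaged, 4 without Tgif1 KD replicate 1, 5 without Tgif1 KD replicate 2, 5 without shControl replicate 1 and 4 without shControl replicate 2.

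**Figure D4:**
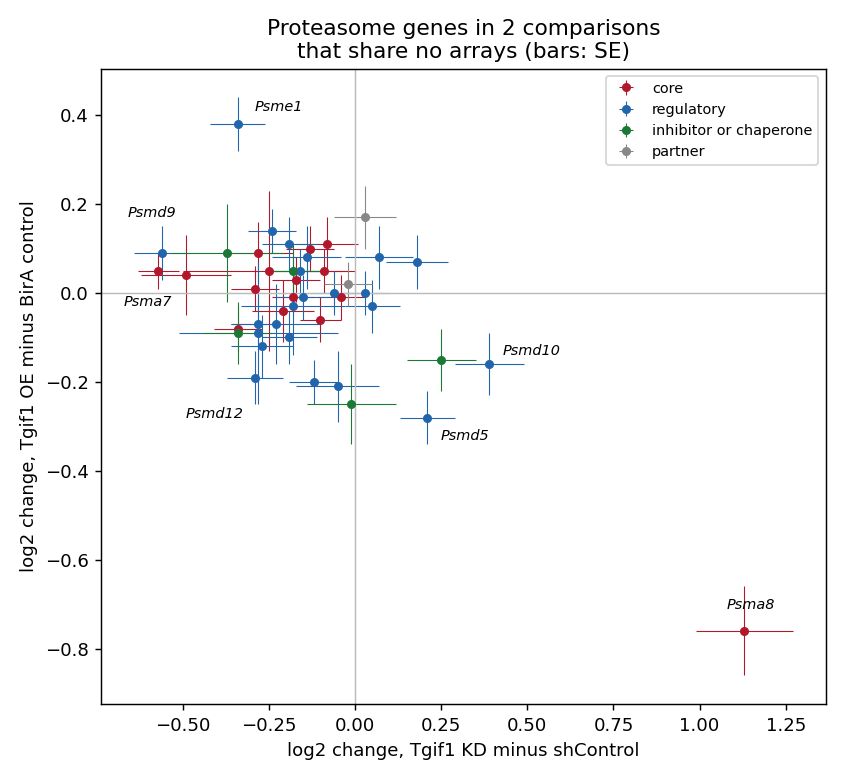
Log2 change of each member in the knockdown (horizontal axis, Tgif1 KD minus shControl) and on overexpression arrays (vertical axis, Tgif1 OE minus BirA control), with bars of 1 SE. Psma8 lies at 1.13 and -0.76 and Psme1 at -0.34 and 0.38, while most members lie left of 0 and near 0 on the vertical axis.

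The inducible catalytic subunits take the place of Psmb5, Psmb6 and Psmb7 in immunoproteasomes, and as deposited all 3 were lower on Tgif1 KD arrays and higher on both kinds of overexpression array. Psmb8, the counterpart of Psmb5, read 4.49 and 4.76 on Tgif1 KD arrays and 5.17 and 5.40 on shControl arrays (-0.66 ± 0.16; limma adjusted p = 0.00561). It read 7.10, 7.09, 7.19 and 7.18 on Tgif1 OE arrays and 6.66, 6.47, 6.92 and 7.06 on Tgif2 OE arrays, against 5.61, 5.57, 5.80 and 5.59 on BirA control arrays. The change was 1.50 ± 0.11 on Tgif1 OE arrays (limma adjusted p = 6.10e-07, and 0.0024 with the pairs averaged). Against BirA control, the Tgif2 OE change was 1.13 ± 0.11 as deposited (limma adjusted p = 4.77e-06) and 1.02 after quantile normalization (limma adjusted p = 9.12e-06). On Tgif1 KD, shControl and BirA control arrays Psmb8 lay under log2 7, the level used above for dim markers, so these changes involve dim signals. The knockdown call of Psmb8 was lost without Tgif1 KD replicate 1 (limma adjusted p = 0.0741) and without shControl replicate 2 (0.0695).

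Psmb9, the counterpart of Psmb6, read 5.37 and 5.28 on Tgif1 KD arrays and 6.09 and 6.05 on shControl arrays (-0.74 ± 0.11; limma adjusted p = 1.02e-04). It changed by 0.77 ± 0.07 on Tgif1 OE arrays (limma adjusted p = 5.39e-06, and 0.00437 with the pairs averaged). Its Tgif2 OE change was 0.63 ± 0.07 as deposited (limma adjusted p = 1.95e-05) and 0.52 after quantile normalization (limma adjusted p = 8.32e-05). Psmb9 lay under log2 7 on every array. Psmb10, the counterpart of Psmb7, read 8.70 and 8.84 on Tgif1 KD arrays and 9.41 and 9.48 on shControl arrays (-0.68 ± 0.10; limma adjusted p = 1.95e-04). Neither gene had overlapping groups in the knockdown. Psmb10 changed by 0.30 ± 0.07 on Tgif1 OE arrays (limma adjusted p = 0.00836), a call lost with the pairs averaged (limma adjusted p = 0.143) and within replicates 3 and 4 alone (change of 0.19, limma adjusted p = 0.109). Its Tgif2 OE change was 0.25 ± 0.07 as deposited (limma adjusted p = 0.016) and 0.12 after quantile normalization (limma adjusted p = 0.276). That call was also lost with the pairs averaged (limma adjusted p = 0.146) and without BirA control replicate 1 or 2 or Tgif2 OE replicate 4. The Tgif1 KD effect was lower than the Tgif1 OE effect for Psmb8 (-2.16), Psmb9 (-1.52) and Psmb10 (-0.98). The constitutive subunits Psmb5 and Psmb7 were not called in any of these comparisons. The constitutive Psmb6 was called lower in the knockdown (-0.29) and higher on Tgif2 OE arrays as deposited (0.26). Its knockdown effect was also called lower than its Tgif1 OE effect (-0.30). It was not called on Tgif1 OE arrays, nor on Tgif2 OE arrays after quantile normalization.

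**Figure D5:**
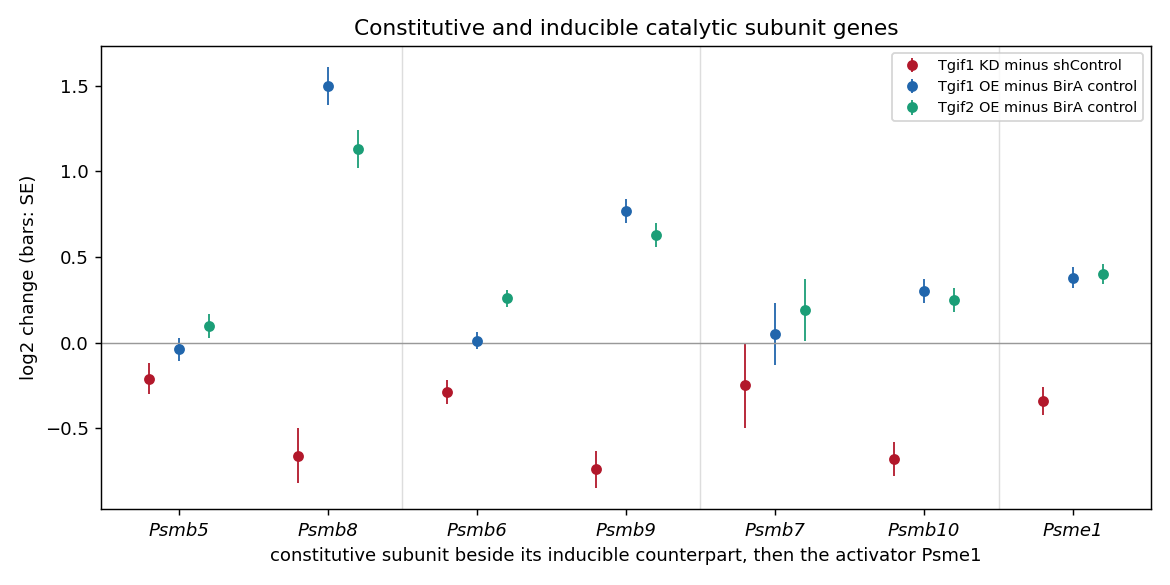
Log2 change of the constitutive catalytic subunit genes, each beside its inducible counterpart, and of the activator Psme1, for Tgif1 KD minus shControl, Tgif1 OE minus BirA control and Tgif2 OE minus BirA control as deposited, with bars of 1 SE. Psmb8 has changes of -0.66, 1.50 and 1.13, while Psmb5 beside it has -0.21, -0.04 and 0.10.

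The next list was drawn up for assembly and transcription, but genes on it such as Ecpas neither assemble the core nor control its transcription. Beyond the Psmg members it held 7 measured genes: Pomp, Akirin2, Nfe2l1, Nfe2l2, Nfe2l3, Ngly1 and Ecpas. Over these, 2 rose and 0 fell with the knockdown, 1 rose and 2 fell on Tgif1 OE arrays, and 2 rose and 1 fell on Tgif2 OE arrays as deposited. After quantile normalization 1 was higher and 1 lower on Tgif2 OE arrays. The shares of all genes called, for this list and those that follow, were 12.5% higher and 12.9% lower in the knockdown, and 11.4% higher and 9.51% lower on Tgif1 OE arrays. On Tgif2 OE arrays they were 28.7% higher and 6.69% lower as deposited, and 13.8% and 13.0% after quantile normalization. The lists are short, and no test of a list was run. Nfe2l1 itself was not called, with changes of 0.17 ± 0.12 in the knockdown (limma adjusted p = 0.322) and -0.01 on Tgif1 OE arrays. On Tgif2 OE arrays its change was 0.22 ± 0.08 as deposited (limma adjusted p = 0.0507), or 0.10 relative to the median of all genes. Its relative Nfe2l2, the factor of oxidative stress that binds the same element, averaged 11.02 on Tgif1 KD arrays and 10.13 on shControl arrays (0.89 ± 0.09; limma adjusted p = 3.09e-06). Nfe2l2 fell on Tgif1 OE arrays (-0.20; limma adjusted p = 0.0261), a call lost without Tgif1 OE replicate 3 or 4 and without BirA control replicate 3 or 4. It was also lost with the pairs averaged (limma adjusted p = 0.276), after quantile normalization (0.0506) and within replicates 1 and 2 alone, where the change was -0.08 (0.386). Ngly1, the enzyme that removes sugars from Nfe2l1, rose with the knockdown by 0.50 ± 0.17 (limma adjusted p = 0.0387), a call lost whichever knockdown arm array was left out. It changed by -0.51 on Tgif1 OE arrays (limma adjusted p = 0.00611), a call lost with the pairs averaged (limma adjusted p = 0.0928). Ecpas, the gene of this list called higher on Tgif1 OE arrays, lost its call in 6 of 19 alternatives, among them the pairs averaged (limma adjusted p = 0.229). On Tgif2 OE arrays as deposited, Ecpas changed by 0.86 ± 0.15 (limma adjusted p = 4.67e-04) and Ngly1 by -0.63 ± 0.12 (limma adjusted p = 8.72e-04). Both were called there in all 19 alternatives. Pomp, which matures the core, read 11.83 and 11.80 on Tgif1 KD arrays and 12.03 and 12.05 on shControl arrays (-0.22 ± 0.09; limma adjusted p = 0.0841).

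A further 10 measured genes encode proteins that act with the proteasome: ubiquitin receptors, deubiquitinases, the ubiquitin ligases Ube3a and Ube3c, the thioredoxin-like Txnl1 and the small lid subunit Sem1. Of these, 0 rose and 2 fell with the knockdown, and 1 rose and 1 fell on Tgif1 OE arrays. On Tgif2 OE arrays 2 rose and 0 fell as deposited, and 1 was higher and 0 lower after quantile normalization. Ubqln2, which carries ubiquitin-tagged proteins to the proteasome, averaged 10.04 on Tgif1 KD arrays and 10.98 on shControl arrays, or 52.1% of control (-0.94 ± 0.09; limma adjusted p = 2.41e-06). It rose on Tgif1 OE arrays by 0.29 ± 0.06 (limma adjusted p = 0.00316), a call lost with the pairs averaged (limma adjusted p = 0.103) and with the mean of its probe sets (change of 0.16, limma adjusted p = 0.104). On Tgif2 OE arrays Ubqln2 changed by 0.46 ± 0.06 as deposited (limma adjusted p = 6.63e-05), called in all 19 alternatives. Its Tgif1 KD effect was below its Tgif1 OE effect by -1.23 ± 0.11. Rad23b, another carrier, fell by 0.20 with the knockdown (limma adjusted p = 0.0241) and by 0.18 on Tgif1 OE arrays (limma adjusted p = 0.00865), and its knockdown call was lost whichever knockdown arm array was left out. Its Tgif1 OE call was lost with the pairs averaged (limma adjusted p = 0.23) and with the mean of its probe sets.

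Of 4 measured genes of ubiquitin supply and the Vcp segregase, 1 fell with the knockdown. That was Ufd1, a Vcp cofactor, at -0.43 ± 0.08 (limma adjusted p = 9.65e-04). None was called on Tgif1 OE arrays, and Vcp and Ufd1 were called higher on Tgif2 OE arrays as deposited. Both calls were lost after quantile normalization, where the changes were 0.06 for Vcp (limma adjusted p = 0.403) and 0.15 for Ufd1 (0.078). They were also lost with columns centred on their medians (limma adjusted p of 0.0759 and 0.0582), with each gene's probe sets averaged (0.0853 and 0.057) and with the pairs averaged (0.0878 and 0.0895). Of 10 measured genes listed for proteotoxic stress, most of them heat shock genes, 1 was called in the knockdown, Sqstm1, which rose. On Tgif1 OE arrays 1 fell, and on Tgif2 OE arrays as deposited 2 rose and 1 fell. After quantile normalization Sqstm1 was higher and Dnajb1 and Hspb1 lower on Tgif2 OE arrays. Sqstm1, an autophagy receptor for ubiquitin-tagged proteins, averaged 10.00 on Tgif1 KD arrays and 9.50 on shControl arrays (0.50 ± 0.10; limma adjusted p = 0.00161). Hspb1, a small heat shock protein, changed by -0.59 ± 0.05 on Tgif1 OE arrays (limma adjusted p = 1.69e-06, and 0.00548 with the pairs averaged).

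Several probe sets of a gene did not always move alike. Of the members, 21 had more than 1 probe set, and the 45 members had 82 in all. Among the 16 with at least 2 probe sets over a mean of log2 7, 4 had probe sets of opposite sign in the knockdown: Psmc6, Psmd11, Psme3 and Psmf1. None of these 4 was called in that comparison. On Tgif1 OE arrays 4 of the 16 did so, Psmb3, Psmc6, Psme3 and Psme4, none of them called. In the Tgif2 OE comparison 3 of the 16 did so, Psmd4, Psmd11 and Psme3. Psme3 was called there as deposited, with a change of 0.18 on the probe set used, while its other probe set over log2 7 changed by -0.11.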

How the data were processed

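Total RNA of J1 ES cells was measured on 16 Affymetrix Mouse 430A 2.0 arrays. The authors deposited log2 intensities, 1 per probe set and array, for which the submitters' processing notes name RMA on all samples, and limma as well on the Tgif2 samples, with no version. No table column was left unmapped. Of 22690 probe sets, 64 were controls, 20380 carried 1 symbol, 691 carried several and 1555 carried none. For each of 12393 genes the probe set with the highest mean was kept, and dim genes stayed in.

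In limma 3.58.1 (R 4.3.3), group means were fitted over the 16 arrays together, with Benjamini-Hochberg adjustment across the genes within each contrast and two-sided tests. The fit was tested on simulated data. Whether replicates came from separate cultures is not in the labels: p-values reflect the spread of these samples alone, which may be technical, and precision is limited by how many arrays there were. Members and lists were chosen with earlier results of these data known. Array values are given for up to 4 called members with the largest rise and 4 with the largest fall per comparison, for catalytic subunits and activators, and for members called in opposite directions in the knockdown and overexpression arms. Of the other lists, Psmb8, Psmb9, Psmb10, Nfe2l1, Pomp, Tgif1 and Tgif2 were taken always, and otherwise up to 3 called genes per direction. Psmb4, Psmg1 and Psme1, whose falls round to the same size, were all shown.

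Alternatives were quantile normalization, columns centred on their medians, the mean of a gene's probe sets, a trended and robust variance, leaving out the dimmest genes, fitting an arm alone, the replicate number or the array pair as a block, either pair alone, the pairs averaged, and leaving out each array. Arrays of the overexpression arm that share a number deviated together (correlations of 0.32 to 0.56 over 12 comparisons), so the numbers were taken as pairing there, although an array's own number was its best match in only 2 of 12. In the knockdown arm the correlations were 0. RefSeq promoters of GRCm38.p6 were searched on both strands.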

Additional observations from a re-analysis of the deposited data

Results flagged for a closer look

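In groups of 4 arrays, each member was checked for 1 array that stands apart from the other 3, by Dixon's test at the 95% level. Of 135 combinations of member and group, 3 passed, and chance alone passes about 1 in 20. Psma3, an alpha subunit, read 12.81 on Tgif1 OE replicate 1, against 12.92 on the nearest array of its group. Psmd9 read 8.97 on Tgif2 OE replicate 3, against 9.02 on the nearest. Psma4, another alpha subunit, read 12.65 on BirA control replicate 4, against 12.68 on the nearest. Each of these gaps is at most 0.11 log2.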

How the results depend on the processing

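For 117 called results of single genes, 2095 values under 11 alternatives and 16 left-out arrays were compared: 1726 kept their direction and call, 369 lost the call and 0 reversed. Calls in the knockdown ran from 3 to 6 lower and 1 to 2 higher when an array was left out, against 12 and 2. On Tgif1 OE against BirA control they ran from 1 to 2 higher and 3 to 6 lower, against 1 and 4. On Tgif2 OE they ran from 14 to 17 higher and 0 to 2 lower, against 17 and 1. For Tgif1 OE against Tgif2 OE they ran from 7 to 13 lower, against 17, and for the knockdown effect minus the Tgif1 OE effect from 3 to 4 higher and 4 to 11 lower, against 4 and 9.

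With the replicate block, 19 members were lower in the knockdown, where arrays sharing a number had correlations of 0. Counts were 2 higher on Tgif1 OE and 2 lower on Tgif2 OE, and no other count moved by over 1.5 times. The array pair block gave 5 higher and 8 lower on Tgif1 OE, 2 lower on Tgif2 OE, 26 lower for Tgif1 OE against Tgif2 OE and 19 lower for the difference of effects. Replicates 1 and 2 alone gave 3 higher on Tgif1 OE and 18 lower for the difference of effects. Replicates 3 and 4 alone gave 2 higher on Tgif1 OE, 11 higher and 2 lower on Tgif2 OE, and 9 lower for Tgif1 OE against Tgif2 OE. Shares of all genes called under these blocks and single pairs are not given. These counts therefore do not tell a change in the members from a change in calls for every gene.

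The pairs averaged, chosen after seeing the data, gave 1 lower on Tgif1 OE, 2 higher and 0 lower on Tgif2 OE, 0 lower for Tgif1 OE against Tgif2 OE and 3 lower for the difference of effects. This alternative has fewer samples, which tends to make calls rarer for any gene. Shares of all genes called are not given for it, for left-out arrays or for the other alternatives here except quantile normalization. Quantile normalization gave 2 higher and 4 lower on Tgif2 OE and 1 lower for Tgif1 OE against Tgif2 OE; centred columns gave 5 higher and 3 lower, and 2 lower. A trended and robust variance and leaving out the dimmest genes each gave 2 higher on Tgif1 OE. The overexpression arm alone gave 0 lower on Tgif2 OE and 11 lower for Tgif1 OE against Tgif2 OE; it could not give the difference of effects. Where not named, the cause was not tested. Groups of 2 arrays limit the knockdown calls, and dim genes such as Psmb8 lie near the low end of the scale.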
